A study of Rattus norvegicus with 12 samples.

Results

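Corn oil was set against olive oil in the livers of rats overfed a diet with 70% fat. The comparison used every array whose title gives corn or olive oil at that fat level, which made 6 of the study's 12 arrays, 3 per oil, and all 4736 genes that a probe set names. The rats were male Sprague-Dawley animals of 150 g at the start, fitted with a tube into the stomach and overfed by 17% of calories for 21 days by total enteral nutrition, an infusion of liquid diet. All rats were thus cannulated and overfed, the diets were isocaloric, and the groups at 70% fat differed in the oil alone: corn oil, which is polyunsaturated, or olive oil, which is monounsaturated. The matching groups at 5% fat, with 3 arrays per oil, serve below as a second comparison of the same oils. Echium oil, which the protocol also lists, was not analysed here. Each array held an RNA pool; how many rats made up a pool was not stated in the labels, so the p-values measure the spread between pools and not between animals. The question the design poses is how the type of dietary fat bears on the fatty liver that overfeeding produces.

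Background from textbook knowledge may help with the genes that follow. The liver makes fatty acids from carbohydrate through ATP citrate lyase, acetyl-CoA carboxylase and fatty acid synthase, and stearoyl-CoA desaturase then places a double bond in saturated fatty acids to give monounsaturated ones such as oleate, the main fatty acid of olive oil. Polyunsaturated fatty acids, of which corn oil supplies linoleate, are known to lower transcripts of this pathway, in part by holding back the transcription factor SREBP-1c. Fatty acids also bind PPAR alpha, a nuclear receptor whose targets include genes of fatty acid uptake, mitochondrial and peroxisomal oxidation.

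With corn oil, several transcripts of fatty acid synthesis and uptake were lower than with olive oil. Those for stearoyl-CoA desaturase, the fatty acid transporter CD36, acyl-CoA synthetase 5 and apolipoprotein A-IV were among those that fell, and 3 of 7 transcripts of MHC class II antigen presentation and 5 of 35 cytosolic ribosomal protein transcripts rose. Here "rose" and "fell" mean higher or lower with corn than with olive oil at 70% fat, past a Benjamini-Hochberg adjusted p of 0.05 in limma. Of the 4736 genes, 328 (6.93%) passed, 162 (3.42%) rose and 166 (3.51%) fell, and 139 of them differed by at least 1.5-fold. Among the 8740 probe sets, 744 (8.51%) passed, 346 (3.96%) upward and 398 (4.55%) downward. The 6 arrays separated fully by oil in 326 of the 328 genes, and in 1224 (25.8%) of all genes. The median difference over all genes was 0.014 log2.

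The authors centred each probe set on its 12-array median, so no absolute level is known and the tissue label cannot be checked by the level of liver transcripts. Differences are given as corn minus olive in log2 units with the standard error of the limma model, from 3 pools per oil. The values of an array are given in the same unit, as differences from the 12-array median.

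Control probe sets separated the arrays by oil as well. The array carries probe sets at the 3' and at the 5' end of beta-actin and GAPDH, and the 3' signal minus the 5' signal, averaged over both transcripts, is called the 3'/5' index here; it rises where the 5' part of transcripts is less well represented in the labelled RNA. At 70% fat the index was 0.95, 0.16 and 1.03 in corn pools 1 to 3 (mean 0.71 ± 0.48, SD, n = 3) and -0.23, -0.41 and -0.39 in the olive pools (-0.35 ± 0.10, SD, n = 3). All 3 corn pools lay above all 3 olive pools, with corn pool 2 nearest to them. The difference was 1.06 (exact permutation test, two-sided, p = 0.1, the smallest p that 3 against 3 arrays can give). That the index differs between the oils was known from earlier results of these data, so its p-values are descriptions. At 5% fat the oils differed by 1.64 in the same direction (exact permutation p = 0.1). The hexokinase control did not separate the oils at 70% fat, with a difference of -0.076 (exact permutation p = 0.6), and at 5% fat it separated them in the opposite direction, by -0.12 (exact permutation p = 0.1).

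**Figure D1:**
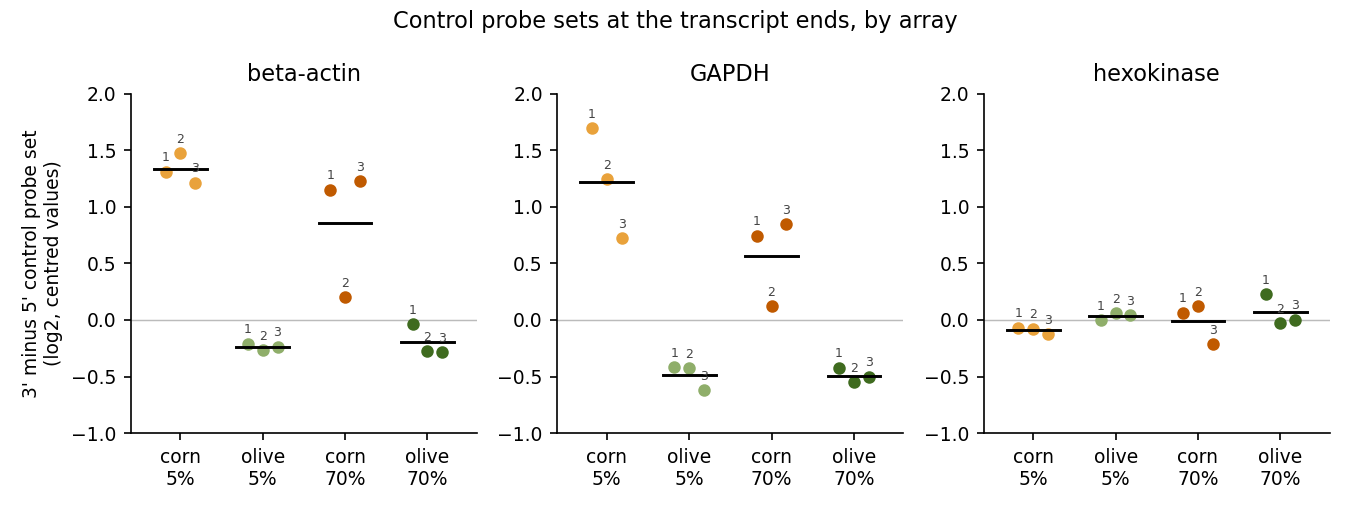
Signal of the 3' control probe set minus that of the 5' one (log2, centred values) for beta-actin, GAPDH and hexokinase in each of the 12 arrays; points are arrays with their pool number and lines are group means. In beta-actin and GAPDH every corn oil array lies above every olive oil array at both fat levels, and corn pool 2 at 70% fat is the corn array nearest to olive; the hexokinase points of both oils overlap at 70% fat, and at 5% fat the corn points lie below the olive ones.

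In most called genes the index moved with the oil difference. In 255 of the 328 called genes (77.7%) corn pool 2 was the corn array closest to the olive arrays, against 47.4% of all genes; pool 1 was closest in 44 and pool 3 in 29. The slope of expression on the index within the diets had the same sign as the oil difference in 274 of the 328 (83.5%). That share was not counted over all genes, where difference and slope had a Pearson r of 0.51, a description across genes. With the index as a covariate in limma the median called gene kept 0.55 of its difference, the median standard error went from 0.12 to 0.20, 26 of the 328 changed sign, and 1 gene passed an adjusted p of 0.05 (364 had an unadjusted p under 0.05). That gene, Pgap2, was chosen after its value was seen, outside the naming rule; its difference was 0.67 without and 1.02 with the index (limma adjusted p = 0.021 with it). How far the RNA's end balance and how far the oil set these differences was not tested. All corn arrays lay above all olive arrays in the index at both fat levels, so end balance and oil cannot be told apart for any gene. This holds also for a gene that kept its size with the index. The count also rested on single arrays: leaving out corn pool 2 gave 538 called genes, leaving out corn pool 1 or 3 gave 154 and 158, and leaving out olive pool 1, 2 or 3 gave 108, 156 and 135. A fit on the 6 arrays alone gave 130. Among the genes described below, Fasn, Acly, Apoa4, Apom, Scarb1, Hadhb, Etfdh, Acat2, RT1-DMb, Cfd, Cfp, Ghr, Cish, Mug1, Pzp, Gclc, Cyp2c11, Cps1, Otc, P4hb, Col1a2 and Thrb lost their call in it. Creg1, Prkab1, Colq and Guk1, named at the end, lost theirs as well. Differences with the index in the model are given beside the genes below. Shares of a list that passed are to be read against the 6.93% of all genes that passed, 3.42% upward and 3.51% downward.

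Most called genes had the same sign in the comparison of the oils at 5% fat. Its means come from the other 6 arrays, but the limma fit shares its estimate of the spread over all 12 arrays and the values are centred over all 12, so both comparisons are not fully separate. Of the 328 called genes, 318 (97.0%) had the same sign at 5% fat, where 65.9% of all genes had the same sign at both fat levels. At 5% fat 801 genes (16.9%) passed. The genes called at both levels, all in the same direction, numbered 235, which is 71.6% of those called at 70% and 29.3% of those called at 5% fat. Over the 4736 genes the differences at both levels had a Pearson r of 0.67, a description across genes, which are not independent replicates, and the arrays at both levels share the direction of the index difference. The median size of the difference in the called genes was 0.54 at 70% fat and, taken in the same direction, 0.55 at 5% fat. A test of the change in oil effect between fat levels, the interaction in limma, passed for 0 of 4736 genes, with 565 at an unadjusted p under 0.05.

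**Figure D2:**
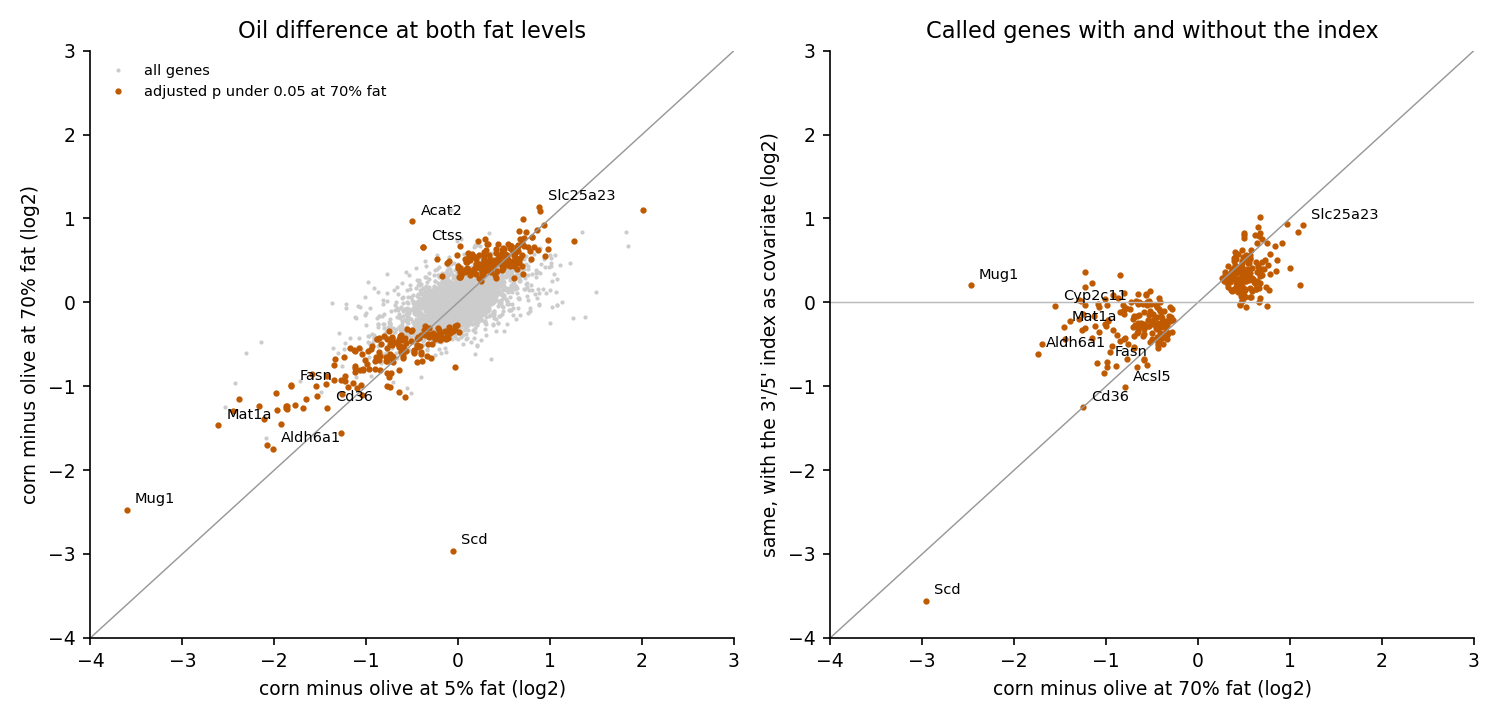
Left: corn minus olive oil difference at 70% fat (vertical axis, log2) against that at 5% fat (horizontal axis, log2), one point per gene, with the 328 genes past an adjusted p of 0.05 at 70% fat in orange. Right: for those 328 genes, the difference once the index is in the model (vertical, log2) against that without it (horizontal, log2); diagonal lines mark equal values. Scd lies at -2.96 at 70% fat and near 0 at 5% fat, and keeps its size with the index, whereas Mug1 goes from -2.47 to 0.20.

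Stearoyl-CoA desaturase, Scd, gave the largest fall past the threshold. It stood at -3.11, -4.70 and -4.77 in corn pools 1 to 3 and at -1.38, -0.997 and -1.32 in olive pools 1 to 3. Every corn pool lay below every olive pool, and the corn pool closest to olive was pool 1 and not pool 2. The difference was -2.96 ± 0.34, or 7.79-fold lower with corn oil (limma adjusted p = 0.0019). Its probe sets, designed on different source sequences, gave -3.003 ± 0.42 and -2.92 ± 0.31, both past the threshold. At 5% fat the oils differed by -0.06 (limma adjusted p = 0.92), so both low-fat groups lay together above 1 on the centred scale while both high-fat groups were below 0. The interaction was -2.90 ± 0.48, with an unadjusted p of 5.03e-05 and a limma adjusted p of 0.17, so the change between fat levels did not pass the correction over all genes. With the index the difference was -3.56 ± 0.63 (limma adjusted p = 0.25), and leaving out any single array kept the call. After a second quantile normalization, which gives every array the same spread of centred values, the difference was -1.41, with the call kept. Probes of this gene may also bind transcripts of its close relatives.

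The other genes of fatty acid synthesis lay below olive oil as well. Of the 12 genes measured from the list, 4 fell and 0 rose (33.3%, against 6.93% of all genes), 11 were lower, and the median was -0.53, against 0.014 over all genes and -0.61 for the same list at 5% fat, where 6 fell. Acaca, acetyl-CoA carboxylase, which makes malonyl-CoA, stood at -0.23, -0.30 and -0.22 with corn and at 0.18, 0.12 and 0.25 with olive oil. The corn pools were close together and well apart from the olive pools, with a difference of -0.43 ± 0.07 (limma adjusted p = 0.0077). At 5% fat it was -0.88, and with the index at 70% it was -0.55. Fasn, fatty acid synthase, stood at -0.67, -1.22 and -1.54 with corn and at -0.45, 0.10 and -0.09 with olive oil. The highest corn pool was only just below the lowest olive pool, and the difference was -0.99 ± 0.24 (limma adjusted p = 0.030). Its probe sets gave -1.26 and -0.72, of which the first passed. Acly, ATP citrate lyase, which supplies cytosolic acetyl-CoA, stood at -0.65, -0.97 and -0.96 with corn and at -0.28, -0.50 and -0.02 with olive oil. Its difference of -0.59 ± 0.14 (limma adjusted p = 0.026) was shown at the threshold by 1 of 3 probe sets. The calls were lost for Fasn without corn pool 3 or any of the olive pools (adjusted p up to 0.10), and for Acly without corn pool 3 or olive pool 1 or 3 (up to 0.10), and both were also lost after a second quantile normalization. In none of the 4 called genes was corn pool 2 the array closest to olive, and with the index the median gene kept 1.18 times its difference. Srebf1, which encodes SREBP-1c, differed by -0.87 ± 0.24 and did not pass (limma adjusted p = 0.052), although every corn pool lay below every olive pool. Its 1 probe set passed narrowly in the fit of probe sets (limma adjusted p = 0.048). At 5% fat Srebf1 fell by -0.94 (limma adjusted p = 0.020), and with the index at 70% it differed by -0.38. Pnpla3, a lipid droplet protein and SREBP-1c target, differed by -0.57 ± 0.42 (limma adjusted p = 0.48), with overlapping arrays.

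**Figure D3:**
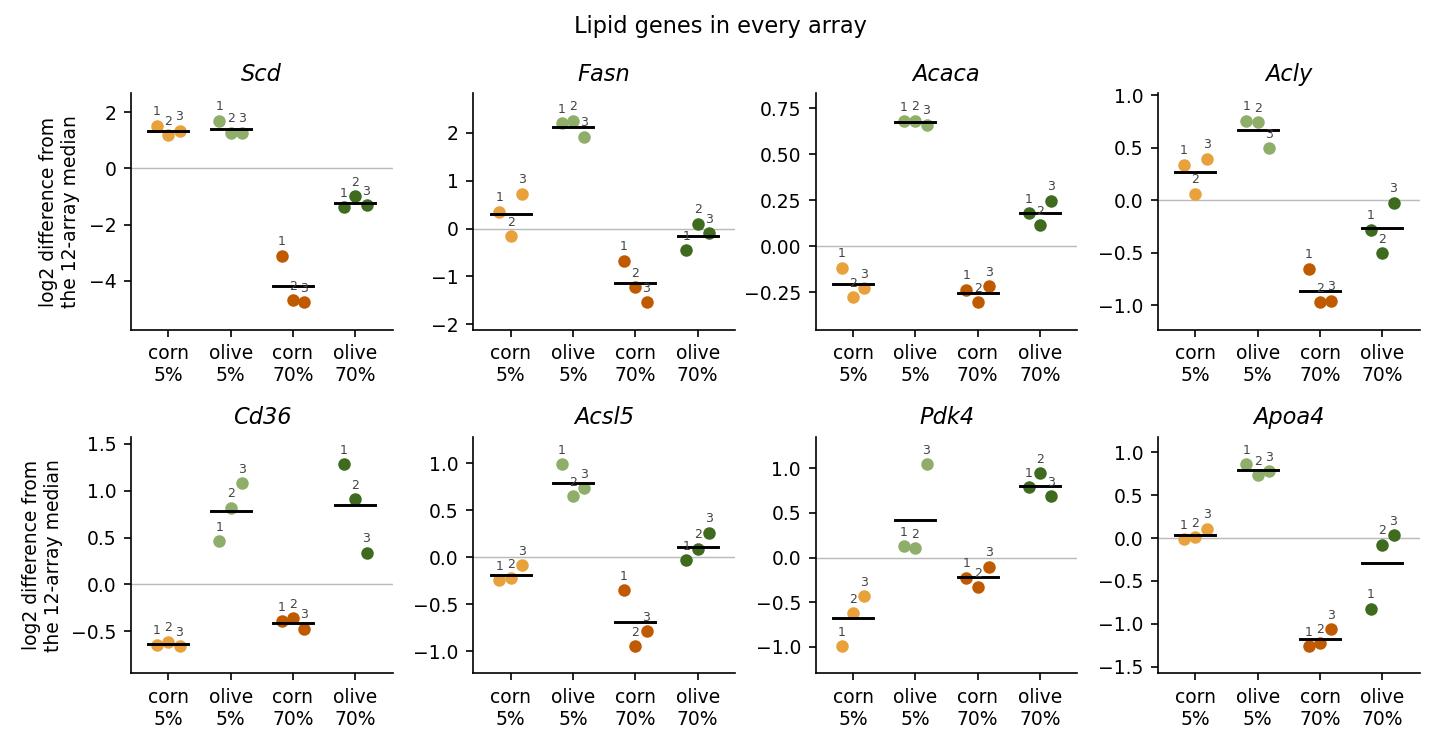
Log2 difference from the 12-array median (vertical axis; scales differ between panels) of 8 lipid genes in each array, by oil and fat level; points are arrays with their pool number and lines are group means of 3 arrays. At 70% fat every corn oil array lies below every olive oil array in all 8 genes; Scd alone among them has its low-fat groups together.

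The promoters of these leading genes are shown because lipogenic promoters are known to bind NF-Y at CCAAT boxes and Sp1 at GC boxes next to sites for SREBP. Sequences are from RefSeq on GRCr8, from 250 bases before to 50 bases after the annotated start, in transcript direction; capitals mark CCAAT or its complement ATTGG, and GGGCGG or its complement CCGCCC. The Scd window is chr1:253231682-253231981 on the minus strand, that of Acly chr10:85963582-85963881 on the minus strand, and that of RT1-Da, an MHC class II gene described below, chr20:4515165-4515464 on the plus strand.
Scd: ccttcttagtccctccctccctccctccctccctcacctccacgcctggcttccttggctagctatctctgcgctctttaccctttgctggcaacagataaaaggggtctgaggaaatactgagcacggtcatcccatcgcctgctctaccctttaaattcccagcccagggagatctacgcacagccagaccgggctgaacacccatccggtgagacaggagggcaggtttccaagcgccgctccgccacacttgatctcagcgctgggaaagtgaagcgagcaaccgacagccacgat
Acly: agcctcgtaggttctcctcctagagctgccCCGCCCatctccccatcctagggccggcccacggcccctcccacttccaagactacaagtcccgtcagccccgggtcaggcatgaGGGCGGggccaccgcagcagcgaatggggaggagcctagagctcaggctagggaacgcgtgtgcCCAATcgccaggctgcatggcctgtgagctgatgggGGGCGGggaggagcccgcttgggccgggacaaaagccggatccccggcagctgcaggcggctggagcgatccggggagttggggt
RT1-Da: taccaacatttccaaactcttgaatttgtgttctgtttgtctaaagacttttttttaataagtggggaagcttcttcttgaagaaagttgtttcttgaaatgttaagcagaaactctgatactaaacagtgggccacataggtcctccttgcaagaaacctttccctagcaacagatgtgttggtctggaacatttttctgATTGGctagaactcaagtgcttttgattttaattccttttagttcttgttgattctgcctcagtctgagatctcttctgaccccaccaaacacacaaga
The Scd window held neither string, the Acly window held 1 CCAAT and 3 GGGCGG, and the RT1-Da window held 1 CCAAT in the ATTGG orientation. Of 33469 rat promoter windows of this length, 37.49% held CCAAT and 33.06% held GGGCGG on either strand. Among the lipogenic genes 10 of 12 had a window, and 8 of these held CCAAT and 5 GGGCGG. Among the MHC class II genes 6 of 7 had a window, and all 6 held CCAAT and 2 held GGGCGG. In the list counts a gene held a string where any of its windows did, whereas the shares of all promoters are per window. Both may thus not be like for like, and the printed window is the first listed for its gene. A match describes the letters alone.

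Genes of fatty acid uptake and binding fell in part. Of 15 measured, 3 fell (20.0%, against 3.51% of all genes) and 0 rose, with a median of 0.016. Cd36, which carries long-chain fatty acids across the cell membrane, stood at -0.39, -0.36 and -0.48 with corn and at 1.28, 0.91 and 0.34 with olive oil. The corn pools lay close together and the olive pools spread widely above them. The difference was -1.25 ± 0.20, or 2.38-fold lower (limma adjusted p = 0.0075), with probe sets at -1.40 and -1.11 that share a source sequence, and it was -1.25 with the index. Acsl5, which activates fatty acids to their CoA esters, stood at -0.35, -0.94 and -0.78 with corn and at -0.03, 0.09 and 0.26 with olive oil. It differed by -0.80 ± 0.14 (limma adjusted p = 0.0093), and by -1.01 with the index. Its probe sets, which share a source sequence, gave -1.23 and -0.37, of which the first passed. Fabp2, a fatty acid binding protein best known from the intestine, differed by -0.66 ± 0.17 (limma adjusted p = 0.036) and by -0.77 with the index. Its corn pools lay between -0.60 and -0.45 and its olive pools between 0.13 and 0.16; its call was lost without olive pool 2 at 5% fat, corn pool 1 or 3, or any olive pool at 70% fat (adjusted p up to 0.10). At 5% fat Cd36, Acsl5 and Fabp2 had differences of -1.43, -0.97 and -0.60. Apoa4, an apolipoprotein of triglyceride-rich particles, stood at -1.26, -1.22 and -1.06 with corn and at -0.82, -0.08 and 0.03 with olive oil. It differed by -0.89 ± 0.17 (limma adjusted p = 0.012) and by -0.76 with the index; this call was also lost after a second quantile normalization. Of the 12 apolipoprotein and assembly genes measured, 2 fell and 1 rose (25.0%), with a median of 0.013, and the median of the 3 called genes kept 0.076 of its difference with the index. The other two were Apom, an apolipoprotein of HDL, at 0.67 ± 0.15 (limma adjusted p = 0.023) and 0.051 with the index, and Scarb1, the HDL receptor, at -0.51 ± 0.13 (limma adjusted p = 0.042) and -0.021 with the index. The call of Apom was lost without corn pool 1 or 3 or any olive pool (adjusted p up to 0.080), and that of Scarb1 without these, any corn pool at 5% fat or olive pool 2 at 5% fat (up to 0.14), after a second quantile normalization, or with the median of its probe sets.

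Mitochondrial fatty acid oxidation held 1 rise and 5 falls among 19 genes (31.6%), with a median of -0.15. Pdk4, the kinase that shuts off pyruvate dehydrogenase when fat is burned, stood at -0.23, -0.33 and -0.10 with corn and at 0.79, 0.94 and 0.69 with olive oil. It differed by -1.03 ± 0.22 (limma adjusted p = 0.017) and by -0.85 with the index; its call was lost without corn pool 1 or olive pool 1 or 2 (adjusted p up to 0.066). Acot2, a mitochondrial acyl-CoA thioesterase, differed by -1.01 ± 0.18 (limma adjusted p = 0.0093) with both of its probe sets past the threshold, from different source sequences. Its difference was -0.26 with the index, and corn pool 2, at 0.27, was the closest to the olive pools at 0.77 to 1.01. Hadhb, a subunit of the trifunctional protein, stood at -0.68, 0.43 and -1.53 with corn and between 0.58 and 0.66 with olive oil. It differed by -1.23 ± 0.33 (limma adjusted p = 0.046), and the sign turned with the index (0.36). Etfdh, which passes electrons from fatty acid oxidation to ubiquinone, differed by -1.07 ± 0.26 (limma adjusted p = 0.030) and by -0.05 with the index. Of its 3 probe sets 1 passed, at -1.62, and the others were at -1.38 and -0.21. The call of Hadhb was lost without any single array but corn pool 2 (adjusted p up to 0.12), and that of Etfdh without corn pool 1 or 3 or any olive pool (up to 0.11). Cpt1a, Cyp4a1 and Ppara, also tied to PPAR alpha, were not called. Cpt1a, which admits fatty acids to mitochondria, differed by -0.15 ± 0.25 (limma adjusted p = 0.82), Cyp4a1, which hydroxylates the omega end of fatty acids, by -0.61 ± 0.21 (limma adjusted p = 0.11), and the receptor's own gene, Ppara, by -0.12 ± 0.10 (limma adjusted p = 0.54), each with overlapping arrays; 1 of the 3 probe sets of Cyp4a1 passed, at -0.96. At 5% fat Cpt1a differed by -1.01 (limma adjusted p = 0.017) and Cyp4a1 by -1.31 (limma adjusted p = 0.0017). Ppara differed there by 0.14 (limma adjusted p = 0.40). With the index at 70% fat the sign of Cyp4a1 turned (0.25). Of 14 peroxisomal and omega-oxidation genes 1 fell (7.14%), with a median of -0.25.

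Of 9 genes of the gluconeogenesis list 2 fell (22.2%, against 3.51% of all genes), and of 11 glycolytic, fructose and pentose phosphate genes 0 passed. Gpd1, which makes the glycerol phosphate backbone of triglycerides, stood at -0.74, -0.30 and -0.53 with corn and at 0.35, 0.30 and 0.68 with olive oil. The groups were well apart, with a difference of -0.96 ± 0.12, or 1.95-fold lower (limma adjusted p = 0.0035), of -1.14 at 5% fat, and of -0.59 with the index.

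Sterol genes were called about as often as all genes. Of 13 genes of cholesterol synthesis and uptake 1 rose (7.69% called, against 6.93% of all genes). Of the 13, 10 were higher, a sign that was not tested, with a median of 0.25 at 70% and -0.16 at 5% fat. The median over all genes was 0.014 at 70% fat. Acat2, a thiolase that starts the pathway from acetyl-CoA, stood at 0.73, 0.21 and 0.03 with corn and at -0.63, -1.10 and -0.22 with olive oil. It differed by 0.97 ± 0.26 (limma adjusted p = 0.046) at 70% and by -0.50 at 5% fat, an interaction of 1.47 ± 0.37 (unadjusted p = 0.0019, limma adjusted p = 0.23). Its call was lost without corn pool 1 or 3, olive pool 1 or 2, any corn pool or olive pool 1 at 5% fat (adjusted p up to 0.16), and also with arrays centred or weighted and with robust moderation. Cyp7a1, which begins the classical route to bile acids, differed by 0.44 ± 0.17 (limma adjusted p = 0.14). Of 13 bile acid genes 1 fell (7.69%).

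Among the 10 largest falls, Scd alone did not shrink with the index in the model. Mug1, a plasma protease inhibitor, stood at -1.89, -0.17 and -3.51 with corn and at 0.55, 0.73 and 0.56 with olive oil. The corn pools spread far more than the olive pools, with pool 2 nearest to olive. The difference was -2.47 ± 0.57 (limma adjusted p = 0.025), and 0.20 with the index; its call was lost without corn pool 1 or any olive pool (adjusted p up to 0.083). Aldh6a1, an enzyme of valine breakdown, stood at -1.20, -0.37 and -1.38 with corn and at 0.37, 0.88 and 1.03 with olive oil. It differed by -1.75 ± 0.23, or 3.35-fold lower (limma adjusted p = 0.0037), and by -0.61 with the index. Ugt1a5, a glucuronosyltransferase whose probes may bind others of its family, fell by 1.70 ± 0.31 (limma adjusted p = 0.010), with -0.50 under the index. Rab1a, a GTPase of transport from the endoplasmic reticulum, differed by -1.45 ± 0.21 (limma adjusted p = 0.0064) and by -0.44 with the index, and Tmem59, a membrane protein, by -1.29 ± 0.30 (limma adjusted p = 0.025) and by 0.028 with the index. The call of Tmem59 was lost without corn pool 1 or 3 or any olive pool (adjusted p up to 0.088). Mat1a, which makes S-adenosylmethionine, stood at -0.88, -0.33 and -1.27 with corn and at 0.33, 0.76 and 0.82 with olive oil. It differed by -1.46 ± 0.24 (limma adjusted p = 0.0077), by -2.61 at 5% fat, and by -0.29 with the index. Of 24 methionine, urea and amino acid genes 4 fell and 1 rose (20.8%), with a median of -0.19. In all 5, corn pool 2 was the closest to olive, and the median gene kept 0.13 of its difference with the index.

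Drug and steroid metabolism gave 3 falls among 26 cytochrome genes (11.5%) and 2 among 24 conjugation and antioxidant genes (8.33%), against 3.51% of all genes. Cyp2c11, the male-specific steroid hydroxylase of rat liver, stood at -1.30, -0.18 and -2.05 with corn and at 0.31, 0.32 and 0.51 with olive oil. It differed by -1.56 ± 0.34 (limma adjusted p = 0.022) with 2 of 3 probe sets past the threshold, and by -0.04 with the index. Gclc, the catalytic subunit that begins glutathione synthesis, differed by -1.40 ± 0.35 (limma adjusted p = 0.034), and by -0.22 with the index. Akr1c14, a hydroxysteroid dehydrogenase, differed by -1.25 ± 0.24 (limma adjusted p = 0.012) with both probe sets past the threshold, and by -0.14 with the index. The call of Cyp2c11 was lost without corn pool 1 or 3 or any olive pool (adjusted p up to 0.075), and that of Gclc without these or corn pool 2 at 5% fat (up to 0.12). Probes of the Cyp2c family may bind more than 1 member.

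The growth hormone axis gave calls in both directions. Of 11 genes of this axis 1 rose and 2 fell (27.3%, against 6.93% of all genes). Igfbp3, the main carrier of IGF-1 in plasma, made in liver mostly by non-parenchymal cells, stood at 0.62, 0.29 and 0.38 with corn and at -0.74, -0.39 and -0.32 with olive oil. It rose by 0.92 ± 0.22 (limma adjusted p = 0.030), with probe sets of different source sequences at 0.87 and 0.96, and by 0.71 with the index. Ghr, the growth hormone receptor, differed by -0.69 ± 0.14 (limma adjusted p = 0.016), with 3 probe sets that ran from -1.48 to 0.37, and by -0.16 with the index. Cish, a feedback inhibitor induced by growth hormone, differed by -0.40 ± 0.11 (limma adjusted p = 0.046) and by -0.39 with the index. These calls were lost for Igfbp3 without corn pool 1 or 3 or any olive pool (adjusted p up to 0.12), for Ghr without corn pool 1 or 3 or olive pool 2 or 3 (up to 0.068), and for Cish without any array at 70% fat or 4 of those at 5% fat, pools 2 and 3 of either oil (up to 0.15).

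MHC class II genes, which present antigen on macrophages, dendritic cells and B cells, were all higher with corn oil. Of the 7 measured, 3 rose (42.9%, against 3.42% of all genes), and the median was 0.33 at 70% and 0.031 at 5% fat. Cd74, the invariant chain, stood at 0.20, -0.0015 and 0.14 with corn and at -0.59, -0.54 and -0.62 with olive oil. The difference was 0.69 ± 0.14 (limma adjusted p = 0.012) and 0.75 with the index; of its 4 probe sets, 2 of 1 source sequence passed and all 4 were higher, between 0.35 and 1.02. RT1-Da, the class II alpha chain whose promoter is printed above, stood at 0.14, -0.02 and -0.17 with corn and at -0.57, -0.62 and -0.72 with olive oil. It rose by 0.62 ± 0.15 (limma adjusted p = 0.026) and by 0.81 with the index, with 1 of 2 probe sets of 1 source sequence past the threshold. RT1-DMb, a chain of the DM protein that loads peptides, rose by 0.33 ± 0.08 (limma adjusted p = 0.026) and by 0.28 with the index, with 1 of 3 probe sets past the threshold (0.69) and the others at 0.036 and 0.26. In these 3 genes the olive pools at 70% fat were the low group of the study's 4 diets. The calls of RT1-Da and RT1-DMb were lost without corn pool 1 or any olive pool, and that of RT1-DMb also without corn pool 3 (adjusted p up to 0.10) or with the median of its probe sets in place of their mean. In bulk tissue, fewer cells of a type and less RNA per cell cannot be told apart.

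Further genes that rose were picked from the macrophage list, the largest rises and the agreeing genes, and share no list. Ctss, cathepsin S, which trims the invariant chain, stood at 0.27, -0.07 and 0.05 with corn and at -0.66, -0.56 and -0.51 with olive oil. It rose by 0.66 ± 0.16 (limma adjusted p = 0.027) and by 0.80 with the index, while at 5% fat it differed by -0.39. The interaction was 1.05 ± 0.22 (unadjusted p = 0.00048, limma adjusted p = 0.20). Grn, progranulin, a lysosomal and secreted protein, rose by 0.58 ± 0.11 (limma adjusted p = 0.010) with both probe sets past the threshold, and by 0.41 with the index. Its corn pools stood at 0.39, 0.07 and 0.41 and its olive pools at -0.36, -0.27 and -0.26, and it differed by 0.11 at 5% fat. Lipa, lysosomal acid lipase, which breaks down stored cholesteryl esters and triglycerides, stood at 0.44, 0.18 and 0.60 with corn and at -0.45, -0.11 and -0.58 with olive oil. It rose by 0.78 ± 0.13 (limma adjusted p = 0.0077) and at 5% fat by a like 0.80, with 2 of 3 probe sets past the threshold, and by 0.57 with the index. Lyve1, a hyaluronan receptor of liver sinusoidal and lymphatic endothelium, rose by 1.09 ± 0.20 (limma adjusted p = 0.0093), with corn pools between -0.05 and 0.39 and olive pools between -1.11 and -0.62, and by 0.84 with the index. Complement genes Cfd and Cfp, factor D and properdin of the alternative pathway, rose by 0.85 ± 0.18 (limma adjusted p = 0.019) and by 0.60 ± 0.14 (limma adjusted p = 0.023), and shrank to 0.38 and 0.28 with the index. The calls were lost for Ctss and Cfp without corn pool 1 or 3 or any olive pool, and for Cfd without corn pool 1 or olive pool 3 (adjusted p up to 0.099).

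**Figure D4:**
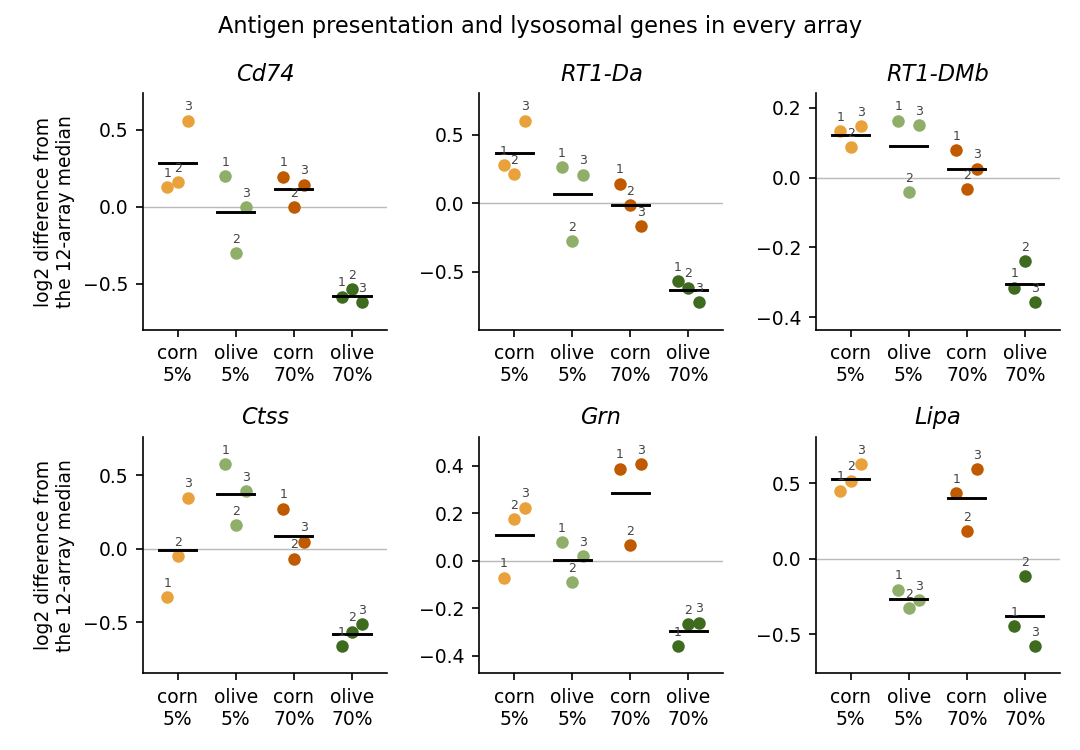
Log2 difference from the 12-array median (vertical axis; scales differ between panels) of 6 genes of antigen presentation and lysosomes in each array, by oil and fat level; points are arrays with their pool number and lines are group means of 3 arrays. In all 6 the olive oil arrays at 70% fat lie below the corn oil arrays at 70% fat; in Lipa both olive groups are low.

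Marker lists for the cells a liver sample can hold were read in the same way. Of 8 macrophage and Kupffer cell markers 1 rose (12.5%, against 3.42% of all genes) and 7 were higher, with a median of 0.26 (-0.23 at 5% fat). The mean of the list lay between -0.18 and 0.14 in the corn pools and between -0.35 and -0.13 in the olive pools. For the MHC class II list the mean lay between -0.050 and 0.15 with corn and between -0.34 and -0.27 with olive oil. Of 11 lymphocyte markers 1 rose (9.09%), which was Cd74 again, and the median was -0.0097. Of 16 stellate cell and matrix genes 2 rose (12.5%), with a median of 0.15. Of 9 hepatocyte markers 2 fell (22.2%, against 3.51% of all genes), Cps1 and Cyp2c11, and all 9 were lower, with a median of -0.071. With the index the median of these 2 called genes kept 0.038 of its difference, and 1 of the 3 probe sets of Cps1 passed. Signs without a call were not tested, and the share of all genes that were higher or lower was not counted. The endothelial (8 genes), cholangiocyte (6), neutrophil (4), erythroid (4), pancreas (11) and skeletal muscle (6) lists had 0 calls, and the adipocyte list (7) had 1, Cfd. Since values are centred, a marker's absence cannot be read from them, and the part of cell composition in the results above was not tested.

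Genes of inflammation and type I collagen were looked up as well. Of 22 acute phase and plasma protein genes 0 passed, with a median of -0.0089. Of 13 interferon response genes 1 rose (7.69% called, against 6.93% of all genes). Tnf, the cytokine, stood between -0.02 and 0.39 with corn and between -0.02 and 0.01 with olive oil, a difference of 0.12 ± 0.11 (limma adjusted p = 0.59). Col1a1, a chain of type I collagen, differed by 0.16 ± 0.13 (limma adjusted p = 0.53). At 5% fat it differed by 0.72 (limma adjusted p = 0.0032). Col1a2, the other chain, rose by 0.52 ± 0.13 (limma adjusted p = 0.038), with -0.051 under the index; its call was lost without corn pool 1 or 3, any olive pool, or pool 2 of either oil at 5% fat (adjusted p up to 0.11).

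Ribosomal protein and proteasome genes gave rises and no falls. Of 35 cytosolic ribosomal protein genes 5 rose and 0 fell (14.3%), with a median of 0.16, and of 20 proteasome genes 3 rose and 0 fell (15%), with a median of 0.11, against 3.42% risers among all genes. Rpl36 stood at 0.17, 0.16 and 0.20 with corn and at -0.28, -0.17 and -0.24 with olive oil. It rose by 0.41 ± 0.07 (limma adjusted p = 0.0093) and by the same 0.41 with the index. Rpl35 rose by 0.47 ± 0.07 (limma adjusted p = 0.0064, 0.44 with the index) and Rpl31 by 0.61 ± 0.11 (limma adjusted p = 0.0088, 0.24 with the index). Of the 2 probe sets of Rpl35, which share a source sequence, 1 passed (0.67) and the other was at 0.27. Psma4, a subunit of the proteasome's core, rose by 0.48 ± 0.09 (limma adjusted p = 0.012; 0.20 with the index). The largest rise was Slc25a23, a mitochondrial carrier of ATP and phosphate. It stood at 0.78, 0.27 and 0.56 with corn and at -0.80, -0.51 and -0.50 with olive oil, a rise of 1.14 ± 0.12, or 2.21-fold (limma adjusted p = 0.0015), of 0.92 with the index, and of 0.88 at 5% fat. Among the other large rises, Mycbp2, a ubiquitin ligase, rose by 0.999 ± 0.16 (limma adjusted p = 0.0077; 0.41 with the index) and Rrbp1, a ribosome-binding protein of the endoplasmic reticulum, by 0.86 ± 0.14 (limma adjusted p = 0.0077; 0.50 with the index). Of 17 lipid-sensing and hepatocyte regulators 1 rose and 1 fell (11.8%). The riser was Thrb, the main thyroid hormone receptor of hepatocytes, at 0.38 ± 0.08 (limma adjusted p = 0.012) and 0.28 with the index; its call was lost without olive pool 1 (adjusted p = 0.061). Genes of oxidative phosphorylation gave 2 falls among 25 (8.00%, against 3.51% of all genes): Ndufs1, a subunit of complex I, at -0.59 ± 0.11 (limma adjusted p = 0.010) with -0.68 under the index, and Vdac1, the channel of the outer mitochondrial membrane, at -1.12 ± 0.18 (limma adjusted p = 0.0075) with -0.29 under the index.

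Several probe sets of a gene give a check within the gene, though all of them read the same RNA on the same arrays. Of the 1565 genes with more than 1 probe set, 113 (7.22%) were called, and of the 3171 with 1 probe set 215 (6.78%). Among the 113, 42 had at least 2 probe sets past the threshold in 1 direction and none in the other, 67 had 1, and 4 had none. Counted from the probe sets alone, 52 genes (3.32% of 1565) showed such agreement, 18 upward and 34 downward, and 27 of these through at least 2 source sequences. All 52 had the same sign at 5% fat, against 65.9% of all genes. Corn pool 2 was the closest to olive in 44 of them, against 47.4% of all genes as a share. With the index the median agreeing gene kept 0.46 of its difference, less than the 0.55 of all called genes. Rbpms and Pmpca were among the agreeing genes where corn pool 2 was not the closest. Rbpms, an RNA-binding protein, stood at 0.33, 0.46 and 0.36 with corn and at -0.37, -0.18 and -0.25 with olive oil. It rose by 0.65 ± 0.09 (limma adjusted p = 0.0037) and by 0.71 with the index. Pmpca, a subunit of the peptidase that matures mitochondrial proteins, rose by 0.63 ± 0.09 (limma adjusted p = 0.0064) and by 0.49 with the index, with corn pools between 0.24 and 0.27.

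Other called genes rested on 1 of several disagreeing probe sets. Those of Cps1, the first enzyme of the urea cycle, gave between -1.67 and 0.03, those of Otc, the next enzyme, -1.59 and -0.02, and those of P4hb, a protein disulfide isomerase, between -2.19 and -0.03. For Pzp, a plasma protease inhibitor, they gave -2.73 and 0.15. With the index the differences of these 4 genes were -0.03 (Cps1), -0.10 (Otc), 0.054 (P4hb) and -0.20 (Pzp), and with the median of the probe sets Cps1 (-0.12) and P4hb (-0.42) no longer passed. Their calls without 1 array were lost for Cps1 and P4hb without corn pool 1 or 3 or any olive pool, and for Otc without these, any corn pool at 5% fat or olive pool 2 at 5% fat (adjusted p up to 0.14). Calls differed in direction by the kind of source sequence. Among 3417 probe sets named as expressed sequence tags 212 rose and 63 fell (8.05% called), with a median of 0.081. Among 638 named as coding sequences 14 rose and 70 fell (13.2% called), with a median of -0.069. Of all probe sets 8.51% were called, 3.96% upward and 4.55% downward. Expressed sequence tags of that time were mostly read from the 3' end of transcripts, and whether this bears on the directions was not tested.

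**Figure D5:**
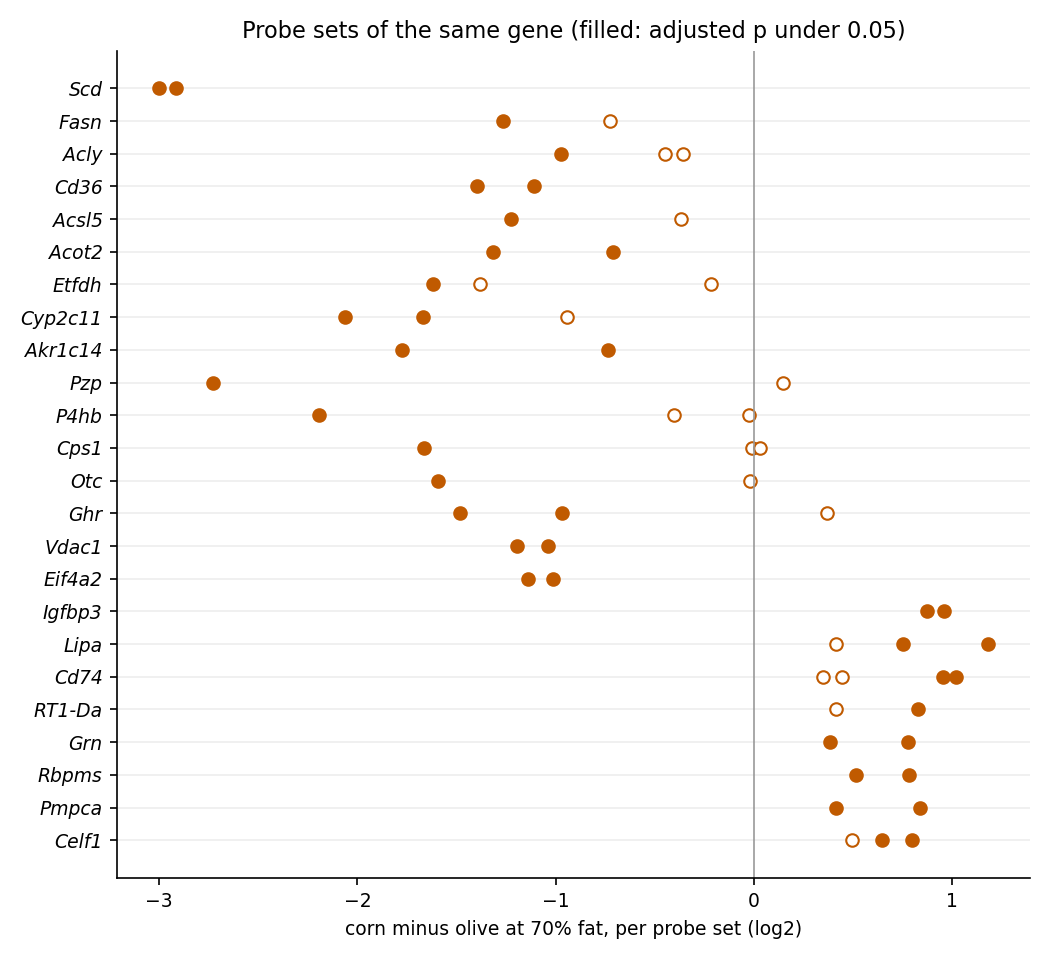
Corn minus olive oil difference at 70% fat (horizontal axis, log2) of each probe set of 24 genes with more than 1 probe set; filled points passed an adjusted p of 0.05 and open points did not. The probe sets of Scd lie together at -3.003 and -2.92, and those of Pzp, P4hb, Cps1, Otc and Ghr spread from called falls to values near 0 or above.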

How the data were processed

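Liver RNA from 4 diets was measured with 3 Affymetrix rat arrays each, and the 6 arrays at 70% fat form the comparison. Per the labels, 8 ug of pooled total RNA went into each biotin labelling. The authors deposited log2 values of 8799 probe sets, made with GCOS and RMA per the submitters' processing notes, with no version given; no log base is stated, and 2 was assumed. Every probe set had a median of 0 over the 12 arrays within 1e-06, and array medians ran from -0.027 to 0.062. No pair of arrays was a duplicate, since the nearest 2 arrays were 0.195 log2 apart in root mean square. The table had 0 columns of other samples. For arrays, their number limits the precision, and centred values do not show signal over background.

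After 59 controls were left out, 8740 probe sets were tested. The platform annotation gave 1 gene symbol to 7006, several to 308, and 1426 are unnamed here; 6985 symbols were updated through the gene identifier to GRCr8 and 21 kept the older symbol. Probe sets of a gene were averaged. Limma 3.58.1 in R 4.3.3 fitted a mean per diet over all 12 arrays (8 residual degrees of freedom, eBayes without a trend), with two-sided p-values adjusted by Benjamini-Hochberg over all features. A probe set's source sequence and kind were read from its identifier. Alternatives were the index as a covariate, a second quantile normalization of the centred values, centring of each array, robust moderation, array weights, the pool number as a block, the 6 arrays alone, the median of probe sets, plain probe sets only, a minimum change of 1.5-fold, and each array left out in turn. The code was tested on simulated data. Pool numbers were not taken to pair arrays, since the labels state no design. Deviations of same-numbered corn and olive pools correlated at -0.15, 0.037 and -0.0059. Whether pools of the same number were handled together was not tested.

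The comparison, the 3'/5' index, gene lists and named genes were chosen with earlier results of these data known, so their counts are descriptions. The same holds for the p-values of the index. Named genes were the 10 largest rises and falls with arrays that did not overlap, agreeing genes by size, up to 4 called members per list, and a set always looked up; the text gives a part of them.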

Additional observations from a re-analysis of the deposited data

How the results depend on the processing

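Called genes numbered 328 as reported, 139 with a 1.5-fold minimum, 508 after a second quantile normalization, 130 with the 6 arrays alone, 1 with the 3'/5' index, and 108 to 538 without 1 array. Called probe sets numbered 744, against 370, 334 with the 6 arrays, 413 with plain probe sets, 0 with the index, and 311 to 1162 without 1 array. Agreeing genes numbered 52, against 79 after the second quantile normalization, 20 with the 6 arrays, 6 with plain probe sets (fewer are left per gene), 0 with the index, and 15 to 87 without 1 array. The index difference of 1.06 ran from 0.90 to 1.34 without 1 array and was -0.076 from hexokinase. The pool number as a replicate block gave 650 probe sets, 296 genes and 40 agreeing genes, and of the 63 called genes that the text names it ended 3 calls, those of Colq, Guk1 and Prkab1 (limma adjusted p 0.054 to 0.075). Of these 63, 29 kept their call without any 1 array, 37 with the 6 arrays alone, 45 with the 1.5-fold minimum, 56 with array weights, 60 with robust moderation, and 59 each under centring, the median of probe sets and the second quantile normalization; with the index 1 (Pgap2) kept it, 57 lost it and 5 changed sign. Changed signs were Hadhb 0.36, Mug1 0.20, P4hb 0.054, Tmem59 0.028 and Col1a2 -0.051 with the index and, among genes not called, Cyp4a1 0.25, Tnf -0.078 and Col1a1 -0.19 with it, Pnpla3 0.34 after the second quantile normalization, and, without 1 array, Cpt1a (-0.43 to 0.0082, positive without corn pool 1) and Tnf (-0.011 to 0.19, negative without corn pool 3). The cause of these changes was not tested. Centred values hold no level, so a filter on low values and a variance trend were not run. The lowest array weight was that of corn pool 3 (0.23).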

Other observations

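Among the 328 genes called at 70% fat, 10 had the opposite sign at 5% fat, a set picked after the values were seen: Acat2, Cnp, Creg1, Ctss, Guk1, P2ry2, Prkab1, Rab14 and Rpp21, which rose at 70% fat, and Colq, which fell. Creg1, a lysosomal glycoprotein, rose by 0.50 ± 0.11 at 70% (limma adjusted p = 0.022) and differed by -0.10 at 5% fat, with 0.81 under the 3'/5' index; its call was lost without corn pool 3 or olive pool 1 or 3 (adjusted p up to 0.081). P2ry2, a receptor for extracellular nucleotides, rose by 0.65 ± 0.17 (limma adjusted p = 0.035) and differed by -0.38 at 5% fat, with 0.90 under the index; its call was lost without corn pool 3, any olive pool or corn pool 2 at 5% fat (adjusted p up to 0.13), or with array weights. Prkab1, a regulatory subunit of AMP-activated protein kinase, rose by 0.31 ± 0.08 (limma adjusted p = 0.042) and differed by -0.18 at 5% fat. Its call was lost without 10 of the 12 arrays, all but corn pool 2 at 70% and corn pool 1 at 5% fat (adjusted p up to 0.15). It was also lost with array weights and with the pool number as a block. None of the 10 was called at 5% fat, and their interactions had limma adjusted p-values of 0.20 (Ctss, P2ry2) and above, so the turn in sign did not pass the correction over all genes.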
